A study of Mus musculus with 4 samples.

Results

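The genes described here encode the machinery that makes and senses adenosine, senses prostaglandin E2, and makes and breaks down cyclic AMP (cAMP) in regulatory T cells (Treg cells), the CD4 T cells that restrain immune responses. They were the rows of the deposited count table carrying 10 listed symbols: the ectonucleotidase genes Entpd1 and Nt5e, the receptor genes Adora2a, Ptger2 and Ptger4, the adenylyl cyclase genes Adcy6 and Adcy7, and the phosphodiesterase genes Pde3b, Pde4b and Pde4d. All 10 were found among 27179 genes, each had counts in every library, and all 10 were among the 11172 genes that passed the filter on low counts. RNA sequencing covered CD4+Foxp3+ Treg cells taken at steady state from C57BL/6 animals, with spleen and peripheral lymph nodes named as the tissue. There were 2 libraries labelled WT and 2 labelled P65KO, the latter lacking RelA (p65), a DNA-binding subunit of NF-kB, by their description. The labels name no allele, Cre driver, age, sex or number of animals, and do not state whether the replicates are separate animals. The p-values therefore reflect variation among 4 libraries that could be technical.

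In this pathway, CD39 (Entpd1) strips phosphates from extracellular ATP and ADP, and CD73 (Nt5e) turns the resulting AMP into adenosine. Both ectoenzymes are well known on the surface of mouse Treg cells, where adenosine is among the mediators of suppression. The adenosine receptor encoded by Adora2a and the prostaglandin E2 receptors EP2 (Ptger2) and EP4 (Ptger4) couple to the stimulatory G protein Gs, which activates adenylyl cyclases, and phosphodiesterases end the signal by hydrolysing cAMP.

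The libraries held 4513863 to 4624230 counts, and 3 counts in a single library corresponded to 0.649 to 0.665 CPM (counts divided by library size) before scaling by TMM. Rela, the targeted gene, had 875 and 806 counts in WT against 820 and 909 in the P65KO-labelled pair, and counts over a whole gene cannot check a deletion of part of it. Foxp3, the defining marker of the labelled cell type, had 1724 to 2385 counts. Together, 8 T cell and Treg markers summed to 5613 and 5390 CPM in WT against 4511 and 5004 CPM. By the test described below, 4 of 8 were lower and 1 higher. Ikzf2 fell from 463 ± 29.7 to 147 ± 26.8 CPM and Ctla4 from 269 ± 6.47 to 143 ± 14.6 CPM (SD, n = 2 each). The other lower ones were Cd3g and Trac. Il2ra rose from 546 ± 9.11 to 733 ± 96.0 CPM. The Treg markers thus also differed between the groups, and their part in the results was not tested. The groups also differed in sex-linked transcripts: Xist had 494 and 608 counts in WT against 0 and 2 in the P65KO-labelled pair, while Ddx3y had 0 counts in both WT libraries and 302 and 404 in the others, so genotype label and these transcripts cannot be told apart. Of 16 myeloid and dendritic markers, 8 of 12 tested rose, none was at 0 in all 4 libraries, and their summed level was 266 and 346 CPM in WT against 1343 and 495 CPM in P65KO-labelled replicates 1 and 2. All 3 tested erythroid markers rose, from sums of 16.1 and 21.9 to 77.8 and 136 CPM, with Pf4 at 0 throughout. Both tested gamma-delta T cell markers rose as well, with list sums of 11.3 and 11.2 CPM in WT against 23.4 and 25.7 CPM. B cell markers summed to 36.0 and 41.1 CPM in WT against 19.4 and 12.4 CPM in the others, with Pax5 at 0. Most of that sum was Cd79b, at 33.9 and 39.2 CPM in WT against 14.1 and 10.2 CPM. The other B cell markers were too low to be tested, and none had a lower mean in the P65KO-labelled pair. The part of other cells in the results was not tested. Without P65KO-labelled replicate 1, all 10 genes kept the direction given below. Their median log2 fold change was -0.34, beside -0.01 over all genes tested in that fit. However, the remaining P65KO-labelled library also exceeded both WT libraries in myeloid transcripts and held the most erythroid ones.

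The comparison sets Treg cells labelled P65KO against WT, and it cannot separate RelA from the sex-linked difference. Of the 10 genes, 6 fell in the P65KO-labelled libraries (Nt5e, Entpd1, Adora2a, Ptger2, Ptger4 and Adcy7), 2 rose (Adcy6 and Pde3b) and 2 did not pass the test (Pde4b and Pde4d), by the quasi-likelihood (QL) test of edgeR with p adjusted after Benjamini and Hochberg (BH) over all genes tested and a threshold of 0.05. Over all 11172 genes, 20.7% passed in either direction, 11.7% lower and 8.996% higher. In all 10 genes the groups did not overlap, 6 lying below and 4 above WT, and the same held for 60.5% of all genes tested, 30.9% below and 29.7% above. The median log2 fold change of the 10 genes was -0.39, beside 0.00 over all genes tested. Both calls with the smallest changes, Entpd1 and Adcy7, ended under several other settings, described with each gene. The other 6 calls remained under all 12 alternatives.

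**Figure D1:**
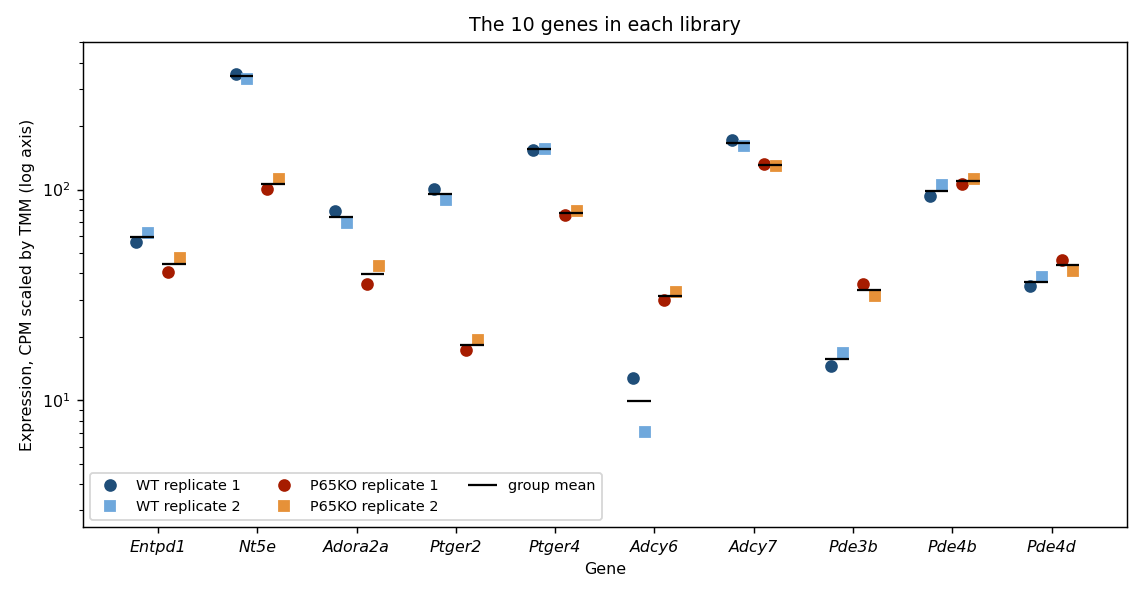
Expression of the 10 genes in each of the 4 libraries, as CPM scaled by TMM on a log axis, with circles and squares for replicates 1 and 2 and short lines for group means. Nt5e, Adora2a, Ptger2 and Ptger4 stood clearly lower in both P65KO-labelled libraries, and Adcy6 and Pde3b stood higher.

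The 250 bases before the transcription start are shown for the 3 genes with the largest decreases, Nt5e, Ptger2 and Ptger4, because the factor named in the genotype label binds DNA. Promoters from RefSeq (GRCm38.p6) were listed for 7 of the 10 genes. Both strands were searched for GGG and CC with any 5 bases between them, a loose form of the NF-kB motif, and capitals mark every base in a match, with overlapping matches joined. This pattern was common: 45.8% of 32851 listed promoter windows of the same length held it. Some windows listed for Pde4b, which did not pass the test, and for Adcy7 also held it. No window listed for Entpd1 or Pde4d did. Each sequence is written 5′ to 3′ on the strand of its gene, from chr9:88327359-88327608 (plus strand), chr15:5244188-5244437 (minus strand) and chr14:44987861-44988110 (plus strand).
Nt5e: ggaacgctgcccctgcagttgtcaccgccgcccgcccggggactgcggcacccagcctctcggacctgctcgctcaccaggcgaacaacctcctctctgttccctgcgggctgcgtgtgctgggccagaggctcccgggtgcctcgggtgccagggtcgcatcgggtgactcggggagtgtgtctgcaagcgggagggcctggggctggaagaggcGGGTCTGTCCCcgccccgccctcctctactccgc
Ptger4: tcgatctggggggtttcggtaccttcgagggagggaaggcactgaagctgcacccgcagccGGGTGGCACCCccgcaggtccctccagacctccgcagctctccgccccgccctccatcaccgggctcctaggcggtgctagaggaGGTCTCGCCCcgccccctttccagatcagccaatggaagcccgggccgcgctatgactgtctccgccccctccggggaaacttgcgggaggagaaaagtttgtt
Ptger2: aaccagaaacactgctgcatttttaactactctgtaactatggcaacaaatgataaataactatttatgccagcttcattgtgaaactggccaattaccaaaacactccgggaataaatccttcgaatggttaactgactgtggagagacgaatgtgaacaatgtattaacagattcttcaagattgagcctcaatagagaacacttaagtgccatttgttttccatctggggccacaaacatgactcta
The Nt5e window held a pair of overlapping matches between 34 and 24 bases before the RefSeq start, in a stretch of 72.0% GC. In GENCODE M21 the gene starts at 88327197, so by that annotation the whole window lies inside the gene. In the Ptger4 window (66.8% GC) a pair of overlapping matches lay between 189 and 179 bases before the start, and a further single match between 104 and 95. The Ptger2 window, of 38.0% GC, held no match, and it ends at the RefSeq start, which lies upstream of the gene's start in GENCODE M21 (44988195). The cAMP response element half-site TGACG, found in 17.8% of all windows on either strand, was in none of these 3 windows; it was in both windows listed for Entpd1, 1 of 3 for Adcy7 and 1 of 4 for Pde4b. These are letter matches in a short window and show no binding.

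Among the ectonucleotidases, Nt5e (CD73; Entrez 23959; GRCm38 chromosome 9, 88327609 to 88372089) was counted 1633 and 1558 times in WT against 456 and 509 times in the P65KO-labelled pair. Scaled, this was 354 and 335 CPM against 101 and 113 CPM, so both P65KO-labelled libraries lay far below both WT libraries. Mean expression was 345 ± 13.5 CPM in WT against 107 ± 8.59 CPM (SD, n = 2 each), a 3.23-fold decrease (log2 fold change -1.69, SE 0.10; edgeR QL, BH-adjusted p = 2.05e-07). The unadjusted 95% interval ran from -1.91 to -1.48, and leaving out any library gave values from -1.78 to -1.61. By p-value it ranked 33 among all genes tested. In bulk RNA, fewer cells that express a gene and less RNA per cell cannot be told apart, here and for each gene below.

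Entpd1 (CD39; Entrez 12495; chromosome 19, 40612366 to 40741602), which acts before CD73 in the same chain, changed far less. It had 261 and 289 counts in WT against 185 and 215 in the P65KO-labelled pair, or 56.6 and 62.2 CPM against 40.8 and 47.6 CPM. Entpd1 fell 1.34-fold (log2 -0.43, SE 0.12; edgeR QL, BH-adjusted p = 0.0263). That call ended in 6 of 12 alternatives, with adjusted p of 0.128 with no filter on low counts, 0.287 with DESeq2, 0.0616 with limma on the deposited log2 RPKM, and 0.119, 0.224 and 0.202 by edgeR when either WT library or P65KO-labelled replicate 1 was left out, in that order. Within a library, and so free of library scaling, the count of Nt5e was 6.26 and 5.39 times that of Entpd1 in WT and 2.46 and 2.37 times in the P65KO-labelled pair. The 2 groups of ratios did not overlap, and an exact permutation test of 2 against 2 libraries cannot give a two-sided p below 0.333.

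The other genes of extracellular nucleotide and adenosine handling moved in both directions. Of 17 that were listed besides Nt5e and Entpd1, 11 were tested, 3 rose, 2 fell and 6 did not pass. Cd38, an ectoenzyme that consumes NAD, fell 3.43-fold, from 61.4 and 48.6 CPM to 13.7 and 18.4 CPM (log2 -1.78, SE 0.18; edgeR QL, BH-adjusted p = 1.73e-05), and both P65KO-labelled libraries were far below WT. Ada, adenosine deaminase, which converts adenosine to inosine, rose 1.98-fold, from 9.33 and 10.3 to 18.1 and 20.8 CPM. The call of Ada ended with DESeq2 and without WT replicate 1 or WT replicate 2 (edgeR QL, BH-adjusted p of 0.0983 and 0.0719 without those libraries). Of the nucleoside transporter genes, Slc29a1 (ENT1) fell 1.31-fold and Slc29a3 (ENT3) rose 1.35-fold, and Entpd5, an intracellular relative of CD39, rose 1.33-fold. These 3 small changes each failed in 5 or 6 of the 12 alternatives. Adk, adenosine kinase, which returns adenosine to AMP, stood at 77.0 ± 0.603 CPM in WT against 68.1 ± 3.01 CPM in the P65KO-labelled pair (SD, n = 2 each) and did not pass, nor did Dpp4 (CD26), which binds adenosine deaminase in humans, at 117 ± 1.59 and 131 ± 12.7 CPM.

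Adora2a (Entrez 11540; chromosome 10, 75316877 to 75334792), the Gs-coupled adenosine receptor gene, had 365 and 324 counts in WT against 162 and 197 in the P65KO-labelled pair. At 79.2 and 69.7 CPM against 35.7 and 43.6 CPM, the groups were well apart. It fell 1.88-fold (log2 -0.91, SE 0.13, unadjusted 95% interval -1.19 to -0.63; edgeR QL, BH-adjusted p = 2.97e-04). No other adenosine receptor gene reached the filter: Adora1 had 0 counts in all libraries, Adora2b had 1 count over both WT libraries and 6 over both others, and Adora3 had 0 and 2. Adora2a thus supplied nearly all adenosine receptor counts in both groups. Nt5e and Adora2a, the source and the sensor of adenosine, did not keep their proportion, since the count ratio of Nt5e to Adora2a was 4.47 and 4.81 in WT and 2.81 and 2.58 in the P65KO-labelled pair.

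Of 14 other listed genes with Adora, P2rx or P2ry symbols, 5 were tested, 1 fell, 1 rose and 3 did not pass. P2rx7, an ATP-gated channel known to trigger death of mouse T cells, fell 1.74-fold, from 323 and 238 CPM to 147 and 175 CPM (log2 -0.80, SE 0.14; edgeR QL, BH-adjusted p = 0.00126). Its call was lost when low counts were not filtered and when WT replicate 1, the highest library, was left out (edgeR QL, BH-adjusted p of 0.0921 and 0.0657). P2ry10 and P2rx4 did not pass, with P2ry10 at 425 ± 62.8 and 414 ± 3.95 CPM (SD, n = 2 each). P2ry6, a receptor for UDP, had 0 and 3 counts in WT against 24 and 11 in the P65KO-labelled pair, a ratio of 11.9 (exact 95% interval 3.76 to 60.6, counting error only). It was highest in the library with the most myeloid transcripts, and the part of those cells in it was not tested. Its fitted log2 fold change of 3.47 was 2.53 without WT replicate 1 and 7.15 without WT replicate 2, and neither passed (edgeR QL, BH-adjusted p of 0.172 and 0.0678). The call of P2ry6 also ended with DESeq2 (adjusted p 0.0601) and with no filter (edgeR QL, BH-adjusted p = 0.138), and no value could be had without P65KO-labelled replicate 1.

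Ptger2 (EP2; Entrez 19217; chromosome 14, 44988111 to 45003820) showed the largest fold change of the 10 genes. It had 465 and 415 counts in WT against 79 and 87 in the P65KO-labelled pair, or 101 and 89.3 CPM against 17.4 and 19.3 CPM. Both P65KO-labelled values were near each other and far below WT. The means were 95.1 ± 8.22 and 18.3 ± 1.30 CPM (SD, n = 2 each), so Ptger2 fell 5.18-fold (log2 -2.37, SE 0.13, unadjusted 95% interval -2.65 to -2.09; edgeR QL, BH-adjusted p = 1.21e-07). It ranked 28 by p-value among all genes tested, and leaving out any library gave -2.46 to -2.28. Of the exon bases of Ptger2 in GENCODE M21, 4.74% lie opposite Gm17173 and 2.77% opposite Gm49364.

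Ptger4 (EP4; Entrez 19219; chromosome 15, 5233399 to 5244187), the other Gs-coupled receptor for prostaglandin E2, had 713 and 723 counts in WT against 345 and 356 in the P65KO-labelled pair. The replicates nearly coincided, at 155 and 156 CPM against 76.1 and 78.8 CPM. Ptger4 fell 2.003-fold (log2 -1.002, SE 0.09, unadjusted 95% interval -1.21 to -0.80; edgeR QL, BH-adjusted p = 1.14e-05). The decrease of Ptger2 was the larger: its count was 0.652 and 0.574 times that of Ptger4 in WT and 0.229 and 0.244 times in the P65KO-labelled pair, with no overlap (smallest two-sided exact permutation p possible 0.333). In GENCODE M21, annotated on the same build, 15.3% of the exon bases of Ptger4 lie opposite the pseudogene Gm15937. Those exons cover 6648 bases, against a counted gene length of 2966, and whether the overlap lies within the counted part was not tested. Since the strand setting of the counting is not given, any reads there cannot be assigned with certainty.

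The other prostanoid receptor genes did not fall with Ptger2 and Ptger4. Among the 7 other receptor genes, 4 were tested, 3 rose and 1 did not pass. Ptger3 (EP3), which couples to the inhibitory G protein Gi, rose 4.41-fold from a low level, with 9 and 11 counts in WT against 49 and 38 in the P65KO-labelled pair (log2 2.14, SE 0.36; edgeR QL, BH-adjusted p = 0.00107). Without WT replicate 1 the log2 fold change of Ptger3 was 2.01 and missed the threshold (edgeR QL, BH-adjusted p = 0.0598). Ptgir, the Gs-coupled prostacyclin receptor, rose 1.83-fold, from 9.33 and 9.90 to 15.4 and 19.7 CPM, and Tbxa2r, the thromboxane receptor, rose 1.31-fold, from 62.3 and 59.2 to 80.9 and 77.7 CPM. Those 2 calls ended in 5 and 7 of the 12 alternatives, DESeq2 and no filter among them. As for any gene that rose, these 3 receptors were higher in the libraries with more myeloid and erythroid transcripts. Within the P65KO-labelled pair, Ptger3 and Tbxa2r were higher in replicate 1, which had the most myeloid transcripts. Ptgir was higher in replicate 2, which had the most erythroid ones. The part of those cells was not tested.

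Ptger1 (EP1) stood at 87.5 ± 7.56 and 100.3 ± 11.2 CPM (SD, n = 2 each) and did not pass, and its level is uncertain because the strand setting of the counting is not given. As scaled CPM per kilobase of the gene length the authors used (RPKM), the 6 receptor genes with a mean of at least 1 RPKM summed to 155 ± 6.50 in WT and 131 ± 5.28 in the P65KO-labelled pair. Ptger2 held 16.2% ± 0.725 of that sum in WT and 3.73% ± 0.114 in the P65KO-labelled pair, and Ptger4 held 33.7% ± 1.54 and 20.01% ± 0.307 (SD, n = 2 each). The level of Ptger2 per length divided by that of Ptger3 was 27.7 and 20.2 in WT and 0.863 and 1.23 in the P65KO-labelled pair, near 1 where it had been far above. With Ptger1 left out for that reason, a choice made after seeing the data, the share of Ptger2 was 22.3% in WT and 5.91% in the others, and that of Ptger4 46.2% and 31.7%.

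Genes of prostanoid synthesis and breakdown were mostly near the detection floor. Of 13 listed, 4 were tested and none passed by edgeR, DESeq2 or limma, while 1 (Abcc4, a transporter gene) had an unadjusted p under 0.05 by edgeR. Over all genes tested, 20.7% passed by edgeR QL, and 4 genes are too few to compare with that share. Ptgs2, the inducible cyclooxygenase, had 1 count over both WT libraries and 3 over both others, and Hpgd, which inactivates prostaglandin E2, had 3 and 15 counts against 34 and 9. Pla2g4a, a phospholipase that frees arachidonic acid, did not reach the filter, with 2 and 2 counts in WT against 26 and 7 in P65KO-labelled replicates 1 and 2, again highest in the library with most myeloid transcripts, whose part was not tested.

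The adenylyl cyclase genes changed in opposite directions. Adcy7 (Entrez 11513; chromosome 8, 88272190 to 88329965), a Gs-activated cyclase prominent in immune cells, had 794 and 750 counts in WT against 600 and 585 in the P65KO-labelled pair, or 172 and 161 CPM against 132 and 130 CPM. Adcy7 fell 1.27-fold (log2 -0.35, SE 0.09; edgeR QL, BH-adjusted p = 0.0174). Leaving out any of the 4 libraries ended that call (edgeR QL, BH-adjusted p of 0.0716 to 0.135, log2 -0.39 to -0.30), as did no filter (0.0741) and DESeq2 (0.0993).

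Adcy6 (Entrez 11512; chromosome 15, 98589978 to 98610287), a cyclase inhibited by calcium, rose 3.15-fold from the lowest level of the 10 genes. It had 59 and 33 counts in WT against 136 and 148 in the P65KO-labelled pair, or 12.8 and 7.10 CPM against 29.99 and 32.8 CPM. The WT libraries differed from each other, but both lay well below the P65KO-labelled libraries, which were close together (log2 1.66, SE 0.23, unadjusted 95% interval 1.16 to 2.15; edgeR QL, BH-adjusted p = 2.55e-04). The log2 fold change was 2.14 without WT replicate 1 and 1.29 without WT replicate 2, and it passed in both. It was 1.72 without P65KO-labelled replicate 1. An antisense gene, Gm29331, lies opposite 8.92% of the exon bases of Adcy6.

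Per length, 3 cyclase genes exceeded a mean of 1 RPKM, and they summed to 39.2 ± 2.51 RPKM in WT and 34.5 ± 0.404 RPKM in the P65KO-labelled pair (SD, n = 2 each). Adcy7 held most of the sum in both groups, 67.2% ± 1.18 in WT and 60.0% ± 1.60 in the P65KO-labelled pair. Adcy6 held 4.16% ± 1.44 in WT and 15.1% ± 0.768 in the others. Adcy3, the remaining cyclase, fell 1.30-fold (edgeR QL, BH-adjusted p = 0.0395), a call lost in 8 of 12 alternatives, and 22.1% of its exon bases lie opposite Cenpo. The count of Adcy7 was 13.5 and 22.7 times that of Adcy6 in WT and 4.41 and 3.95 times in the P65KO-labelled pair.

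Upstream of the cyclases, 0 of 4 tested genes of G protein alpha subunits passed by edgeR QL, where 20.7% of all genes tested passed. Of the 4, 1 (Gnas) had an unadjusted p under 0.05, and 1 passed by DESeq2 and by each limma fit. Gnas, which encodes Gs alpha, was closest, at 839 and 824 CPM in WT against 700 and 694 CPM in the P65KO-labelled pair (log2 -0.25, SE 0.09; edgeR QL, BH-adjusted p = 0.0561). Gnai2 and Gnai3, which encode inhibitory subunits, differed by log2 0.07 and 0.17. Of the exon bases of Gnas, 13.1% lie opposite Gm20721 and 8.83% opposite Nespas.

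**Figure D2:**
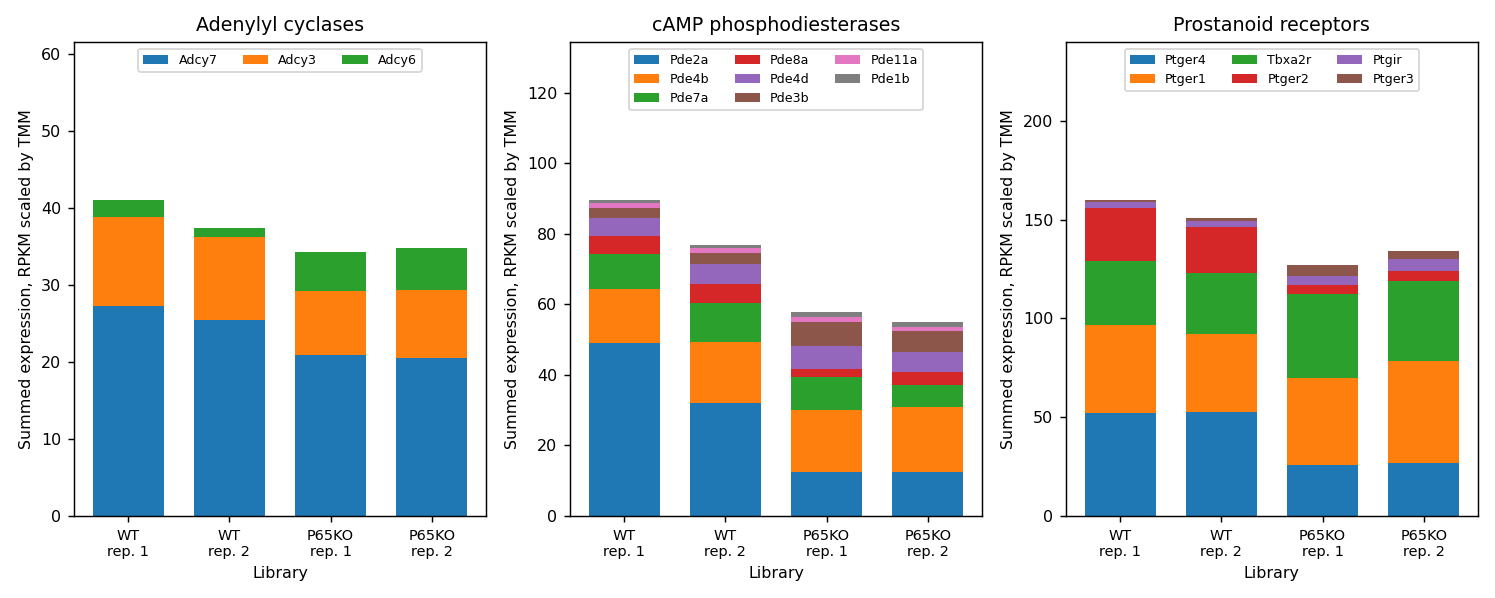
Summed expression of adenylyl cyclase, cAMP phosphodiesterase and prostanoid receptor genes with a mean of at least 1 RPKM, per library, as RPKM scaled by TMM, with each gene's part in its own colour. Adcy6 and Pde3b took larger parts in the P65KO-labelled pair, and Pde2a, Ptger2 and Ptger4 smaller ones.

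Phosphodiesterase genes behaved differently from one another. Pde3b (Entrez 18576; chromosome 7, 114415222 to 114537938) encodes a cAMP phosphodiesterase inhibited by cGMP, whose gene is repressed by Foxp3 in mouse Treg cells. It had 67 and 78 counts in WT against 162 and 141 in the P65KO-labelled pair. Scaled, this was 14.5 and 16.8 CPM against 35.7 and 31.2 CPM, with the groups well apart. Like Adcy6, Pde3b was higher in the libraries with more myeloid and erythroid transcripts, and the part of those cells was not tested. Pde3b rose 2.14-fold (log2 1.09, SE 0.17, unadjusted 95% interval 0.73 to 1.45; edgeR QL, BH-adjusted p = 5.08e-04). Leaving out any library gave log2 0.99 to 1.20, all past the threshold. Foxp3 itself stood at 374 ± 4.25 CPM in WT against 457 ± 100.4 CPM in the P65KO-labelled pair (SD, n = 2 each) and did not pass. Any link between Foxp3 and the level of Pde3b in these libraries was not tested.

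Pde4b (Entrez 18578; chromosome 4, 102087332 to 102607275), a cAMP-specific phosphodiesterase present in T cells, had 428 and 486 counts in WT against 480 and 509 in the P65KO-labelled pair, or 92.9 and 105 CPM against 106 and 113 CPM. The groups barely separated, and the gene did not pass (log2 0.15, SE 0.10, unadjusted 95% interval -0.08 to 0.37; edgeR QL, BH-adjusted p = 0.358). Pde4d (Entrez 238871; chromosome 13, 108654177 to 109955969), of the same subfamily, had 161 and 178 counts in WT against 211 and 185 in the others, or 34.9 and 38.3 CPM against 46.5 and 41.0 CPM. It did not pass either (log2 0.26, SE 0.13, unadjusted 95% interval -0.03 to 0.54; edgeR QL, BH-adjusted p = 0.202). These intervals leave out a 2-fold change in either direction, but do not show that the levels were equal. RefSeq lists 4 starts for Pde4b, and counts per gene cannot separate its isoforms.

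The largest change among the other phosphodiesterase genes was in Pde2a, which encodes a cGMP-stimulated enzyme that hydrolyses cAMP and cGMP. It had 1048 and 692 counts in WT against 265 and 259 in the P65KO-labelled pair, or 227 and 149 CPM against 58.4 and 57.4 CPM. The WT libraries differed from each other more than the P65KO-labelled ones did, and the groups did not overlap. Pde2a fell 3.25-fold (log2 -1.70, SE 0.17; edgeR QL, BH-adjusted p = 1.62e-05), and passed under all 12 alternatives, with log2 values of -1.97 to -1.36 when a library was left out. In GENCODE M21, 64.3% of its exon bases are shared with Gm45837, a gene model on the same strand. Pde8a, a cAMP-specific phosphodiesterase with high affinity, fell 1.82-fold from 14.3 and 14.6 to 6.40 and 9.52 CPM, a call lost in 5 of 12 alternatives. Of the 13 listed genes of the class besides Pde3b, Pde4b and Pde4d, 5 were tested, 2 fell and 3 did not pass.

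The make-up of the phosphodiesterase transcripts differed between the groups. The 8 genes with a mean of at least 1 RPKM summed to 83.2 ± 8.99 RPKM in WT and 56.4 ± 1.87 RPKM in the P65KO-labelled pair (SD, n = 2 each). Pde2a held 54.7% and 41.8% of the sum in WT and 21.8% and 22.4% in the P65KO-labelled pair. Pde3b held 3.60% ± 0.750 in WT and 11.2% ± 0.695 in the others, Pde4b 19.9% ± 3.79 and 32.1% ± 2.49, and Pde4d 6.30% ± 1.09 and 10.99% ± 0.625. Pde4b was thus the largest of the 8 in the P65KO-labelled pair, where its own level had not passed the test, and Pde2a the largest in WT. The count of Pde4b was 6.39 and 6.23 times that of Pde3b in WT and 2.96 and 3.61 times in the P65KO-labelled pair, with no overlap. Transcript sums do not measure enzyme activity.

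Downstream, of 17 genes of protein kinase A, its inhibitors and anchors, and Epac, 15 were tested, 3 rose, 1 fell and 11 did not pass, where 20.7% of all genes tested passed. The catalytic subunit genes Prkaca and Prkacb stood at 51.6 ± 1.22 and 410.1 ± 5.16 CPM in WT against 56.7 ± 0.929 and 420.2 ± 17.0 CPM in the P65KO-labelled pair (SD, n = 2 each), and neither passed. Prkar1b, a regulatory subunit gene, rose from 5 and 3 counts to 25 and 31 (log2 2.80, SE 0.48; edgeR QL, BH-adjusted p = 0.00134), and missed the threshold without WT replicate 2 (edgeR QL, BH-adjusted p = 0.0731). Pkib, an inhibitor of protein kinase A, had 0 and 1 counts in WT against 20 and 11 in the P65KO-labelled pair, a ratio of 31.7 (exact 95% interval 5.28 to 1292, counting error only). Its fitted log2 fold change of 4.67 was 3.83 without WT replicate 1 and 6.97 without WT replicate 2, neither past the threshold (edgeR QL, BH-adjusted p of 0.104 and 0.0661). The call of Pkib also ended with DESeq2 (adjusted p 0.0513) and with no filter (edgeR QL, BH-adjusted p = 0.0645), and without P65KO-labelled replicate 1 the gene gave no value. Its count was highest in that library, which had the most myeloid transcripts, and the part of those cells was not tested. Akap8, an anchoring protein gene, rose 1.32-fold and Prkar2a, another regulatory subunit gene, fell 1.45-fold, calls lost in 6 and 10 of 12 alternatives.

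The abundant regulatory subunit gene Prkar1a stood at 897 and 988 CPM in WT against 760 and 818 CPM in the P65KO-labelled pair and did not pass (edgeR QL, BH-adjusted p = 0.0727). Of 8 genes of the CREB family and its coactivators, which carry the signal to transcription, 8 were tested and 0 passed by edgeR QL. There 0 had an unadjusted p under 0.05, and 0 passed by DESeq2 or limma. Over all genes tested, 20.7% passed by edgeR QL, and 8 genes are too few to compare with that share. Creb1 stood at 161 ± 6.21 and 153 ± 4.24 CPM, and Crem, itself a cAMP-inducible gene, at 31.6 ± 3.93 and 25.4 ± 1.95 CPM (SD, n = 2 each).

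**Figure D3:**
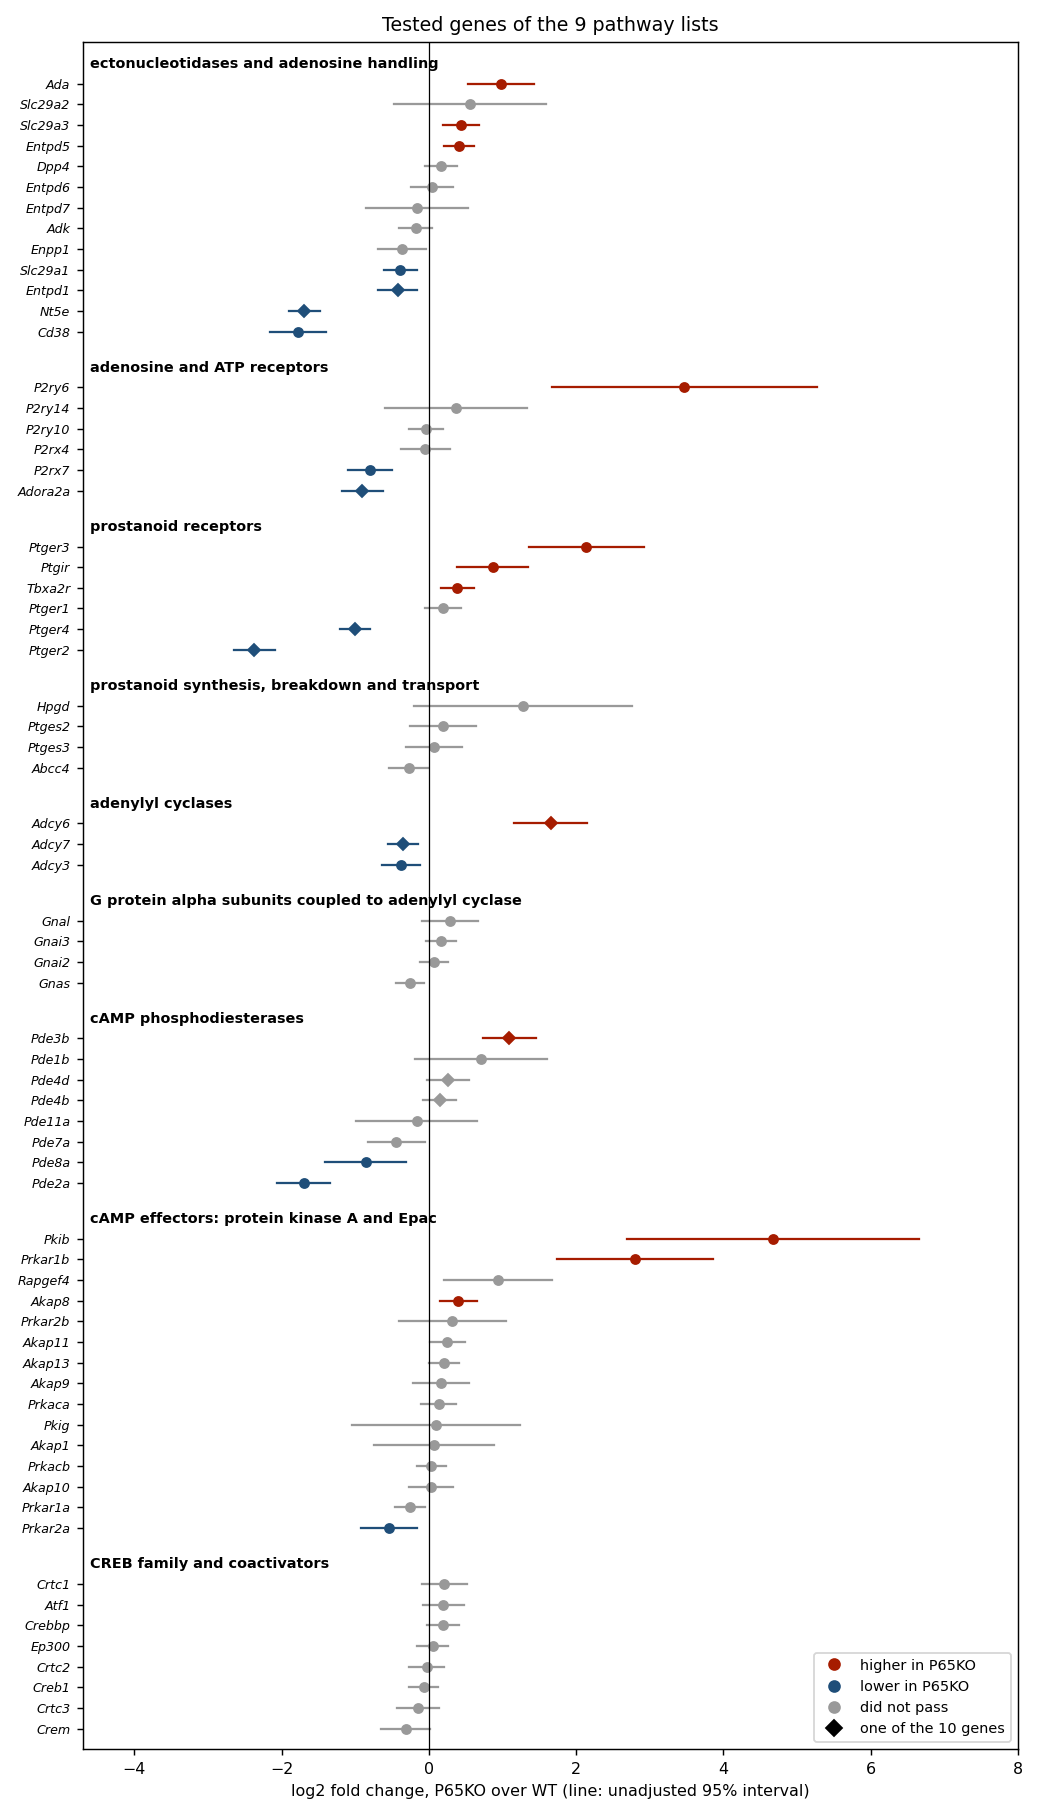
Fitted log2 fold change (P65KO over WT) of the 67 tested genes of 9 pathway lists, with unadjusted 95% intervals as lines, diamonds for the 10 genes, and colour for the call. The lists of prostanoid synthesis, G protein and CREB genes hold no gene called by edgeR QL, but few of their genes were tested. Over all genes tested, 20.7% were called. The widest intervals belong to genes with few counts.

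Counted together, 113 pathway genes were listed by role and 67 were tested: 12 rose, 13 fell and 42 did not pass. Without the 10 genes, 57 were tested, 10 rose, 7 fell and 40 did not pass, with a median log2 fold change of 0.10. Besides the members, 17 of 57 thus passed, beside 20.7% of all genes tested. The count over all genes was 1005 higher and 1305 lower, and 569 higher and 1133 lower by limma on the deposited log2 RPKM values, which carry no TMM scaling. All 10 genes kept their sign there.

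The order of the 10 genes by level per length differed between the groups. In WT it ran from Nt5e (96.3 ± 3.78 RPKM) and Ptger4 (52.3 ± 0.198) over Adora2a, Adcy7, Ptger2, Pde4b, Entpd1 and Pde4d to Pde3b (2.96 ± 0.300) and Adcy6 (1.65 ± 0.669; SD, n = 2 each). Adcy7 and Ptger2 overlapped there, at 26.4 ± 1.22 and 25.2 ± 2.18 RPKM, and no other neighbours did. In P65KO-labelled libraries the order was Nt5e, Ptger4, Adcy7, Pde4b, Adora2a, Entpd1, Pde3b, Pde4d, Adcy6 and Ptger2, from 29.8 ± 2.40 to 4.87 ± 0.346 RPKM. There the values of Pde3b and Pde4d overlapped, as did those of Adcy6 and Ptger2. Ptger2 was thus in place 5 of 10 in WT and in place 10 of 10 in the others.

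**Figure D4:**
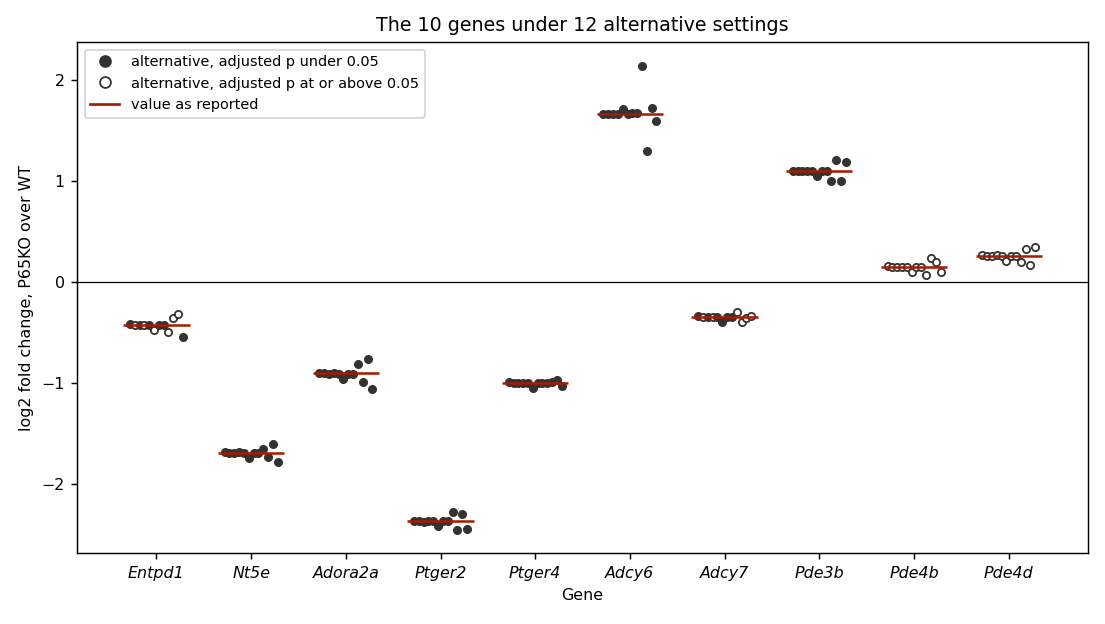
Log2 fold change (P65KO over WT) of each of the 10 genes as reported (red line) and under 12 alternative settings (points, filled where the adjusted p was under 0.05). All points of a gene lie on the same side of 0, and open points occur for Entpd1, Adcy7, Pde4b and Pde4d.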

How the data were processed

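The submitters' processing notes name Subread, featureCounts, limma and the build GRCm38 (mm10); tool versions, annotation and strand setting were not given in the sources used here. Deposited were whole-number read counts for each Entrez gene and log2 RPKM values. Gene length was derived from each deposited count plus 0.5, the library total and the deposited log2 RPKM. It was the same in all 4 libraries for 27179 genes and a whole number for 27178 (tolerance 0.01).

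Genes were filtered with filterByExpr, scaled by TMM and compared with the two-sided quasi-likelihood test of edgeR 4.0.16 (R 4.3.3), with Benjamini-Hochberg adjustment over all genes tested and a threshold of 0.05. The fit was tested on simulated data. Standard errors are the log2 fold change divided by the square root of F. Exact intervals and floors describe counting error alone: no molecular identifiers mark independent molecules. Members and lists were chosen with earlier results of these data known. All 10 members are named, and of the other pathway genes the called ones, up to 20 by adjusted p, and those of short lists or needed to account for a class. Adk, Dpp4, P2ry10, P2rx4, Hpgd, Ptgs2, Pla2g4a, Abcc4, Prkaca, Prkacb and Prkar1a lie outside that rule and were chosen after their values were seen. Coordinates are RefSeq's on GRCm38.p6, and overlaps come from GENCODE M21, as shares of its exon bases. Whether the overlapping bases lie within the exons that were counted was not tested. Alternatives were DESeq2 1.42.0, limma 3.58.1 (voom, and on deposited log2 RPKM), other filters and size factors, a replicate block, and leaving out each library. A marker and an overlapping gene are not reported here.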

Additional observations from a re-analysis of the deposited data

How the results depend on the processing

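All 10 genes kept their direction under the 12 alternatives, and so did the 17 other named pathway genes where they gave a value. Nt5e, Adora2a, Ptger2, Ptger4, Adcy6, Pde3b, Cd38 and Pde2a passed in every one. Over all genes tested, 2310 changed, against 771 when low counts were kept, 1219 by DESeq2, and 743 to 1633 when a library was left out. Of the pathway genes, 25 changed, against 11 with no filter, 12 with DESeq2 and 9 to 18 with a library left out. Of the 10 genes, 8 changed, against 6 with no filter, 6 with DESeq2 and 6 to 7 with a library left out. The cause was not tested. A left-out library leaves its group with 1 sample, assumed to vary like the other group.

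The labels link same-numbered replicates only by the number, and do not state whether they share a batch. With the replicate block, 2319 genes, 8 of the 10 genes and 24 pathway genes changed. Deviations of same-numbered libraries correlated at -0.14 across genes, and with crossed numbers as the block, added after seeing the data, the counts were 2973, 8 and 29. Shares of the summed CPM in place of RPKM were, in WT and P65KO-labelled libraries, 72.6% and 64.5% for Adcy7, 25.0% and 38.0% for Pde4b, 9.27% and 15.2% for Pde4d, 23.2% and 6.06% for Ptger2, and 37.8% and 25.6% for Ptger4. Without Ptger1, the RPKM shares were 22.3% and 5.91% for Ptger2 and 46.2% and 31.7% for Ptger4. With 2 libraries a group, small changes such as those of Entpd1 and Adcy7 rest on little replication.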
